A study of Salmo salar with 34 samples.

Results

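The 100 probes described here had the highest common increase with dietary trace minerals in the midgut of Atlantic salmon, in fish fed inorganic (IM) as well as organic (OM) minerals. They were chosen from the values themselves. Of 14841 probes on the array, 10295 were well above the local background on at least 25 of the 34 arrays, and for each of these the mean level at low minerals was subtracted from that at high minerals, separately in IM and in OM. The probes were ranked by the smaller of these differences and the first 100 are called members. A level is the log2 of the background-corrected intensity minus the 75th percentile of its array, so that 0 stands for that percentile. Because the choice used the differences between high and low minerals, these are given as descriptions without a test.

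Midgut RNA of post-smolts kept in sea water was hybridised after 12 weeks of feeding, 1 fish per array. The paper states that fish on all diets went through weekly handling stress during the trial and lowered oxygen saturation in its last weeks. High IM was represented by 6 fish (2 males and 4 females) and low IM by 8 (3 males and 5 females). High OM was represented by 9 fish (6 males and 3 females) and low OM by 11 (5 males and 6 females). All premixes, at either level, supplied Cu, Fe, Mn, Se and Zn. Which of the study's mineral levels are meant by high and low, and the tank of each fish, are not given in the sources used here. Fish that shared a tank were therefore treated as independent, and p-values measure the spread between fish.

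The midgut takes up nutrients and trace metals through the enterocytes that line its folds. Copper, iron, manganese, selenium and zinc act as cofactors or structural parts of many enzymes, and their entry is balanced by transporters, storage proteins and binding proteins in these cells. Inorganic sources are salts that dissolve in the gut, while in organic sources the mineral is bound to an organic molecule. The files pair no probe with a gene name, and 0 of the 14841 identifiers matched an entry of the salmon gene table used as reference. The functions of the members, and the markers of the tissue, could hence not be examined.

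The 75th percentile of intensity ranged from 87.9 to 863 units over the 34 arrays, with 8786 to 13682 probes per array well above the background. There were 7 slides and 2 scan days, and on 5 slides all fish were of the same sex. All 16 males and 6 of the 18 females were scanned on the second day, and 12 females on the first. Among the low OM fish, males 2, 5 and 6 and females 5 and 6 lay away from the others, and the main results in OM are given with and without them. Low OM male 2 had the brightest array and 818 of the 2160 spots that the scanner software marked as outliers. These spots were left out, which removed 15 of the 3400 values of the members, in 7 members.

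The members were higher by a median of 0.94 at high IM than at low IM, with a range of 0.75 to 2.94, and by a median of 1.12 at high OM than at low OM, with a range of 0.75 to 2.91. Over all 10295 probes the medians were -0.03 in IM and 0.03 in OM. The change exceeded 0.81 log2 units, the fold criterion of the study, in 80 members in IM, in 82 in OM and in 63 in both, against 0.612% of the kept probes in both. The ranking itself picks such probes. The smaller change was 0.758, 0.751 and 0.75 in the last 3 members and 0.75, 0.748 and 0.746 in the next 3 probes, so the list ends without a step. With the normexp background correction the medians were 0.69 in IM and 0.72 in OM, and 19 members passed the criterion in both. The change was larger in OM for 60 members. The sources were within 1.5 times of each other for 72 members, while for 22 the OM change and for 6 the IM change was larger by more than that. The member of rank 36 had the largest OM change, 2.91, with an IM change of 0.90. In tissue RNA, a higher share of the cells that carry a transcript and more transcript per cell cannot be told apart.

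**Figure D1:**
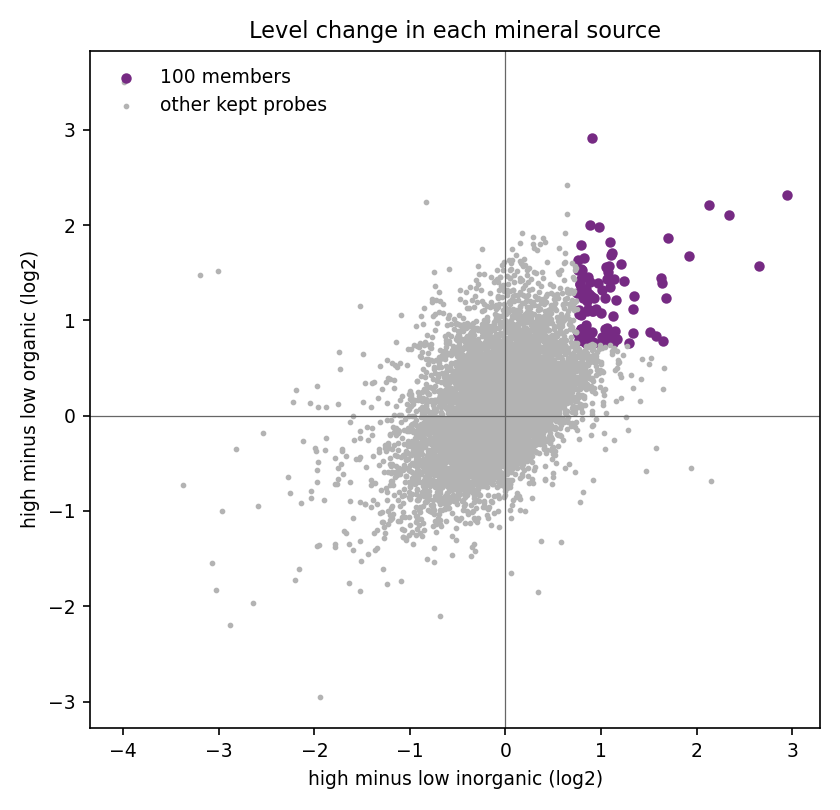
Each point is a probe, placed by the mean log2 level at high minus low IM (horizontal axis) and at high minus low OM (vertical axis), with the 100 members in purple and the other kept probes in grey. The members fill the upper right corner that the choice defined, from 0.75 upwards on both axes.

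Of the 100 members, 73 were well above the background on all 34 arrays, against 73.8% of the kept probes. The member of rank 38 had a lowest, median and highest level of 6.70, 7.16 and 7.63 at high IM, against 4.91, 6.15 and 6.63 at low IM. Every high IM fish was above every low IM fish for this probe. At high OM it had 6.69, 7.12 and 7.97, against 3.77, 6.55 and 8.13 at low OM, where the ranges overlapped. The identifiers of the members started with Ssa#S for 38, with Ssa#GRASP for 34 and with Omy# for 6, against 37.5%, 28.2% and 7.01% of the kept probes.

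The highest-ranked member, Ssa#GRASP209733651, was near the 75th percentile of the array at high minerals and well below it at low minerals. Its lowest, median and highest levels were -0.72, 0.69 and 1.17 at high IM, against -4.57, -2.54 and -1.41 at low IM. All high IM fish lay above all low IM fish. The lowest low IM fish, female 3 (-4.57), was not well above the background. At high OM the levels were -1.56, 0.15 and 0.87, against -4.61, -2.21 and 0.28 at low OM. Here 4 low OM fish lay within the range of the high OM fish, namely females 5 (-0.23) and 6 (0.28) and males 5 (-0.73) and 6 (-0.74). The difference was 2.94 ± 0.62 in IM and 2.31 ± 0.51 in OM (limma standard error). It was similar in the sexes, at 3.24 in males and 2.83 in females in IM and at 2.40 in males and 2.01 in females in OM. With the normexp correction the difference in IM was 1.62.

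The second member, Ssa#S35583278, had comparable mean changes and another distribution over the fish. Its lowest, median and highest levels were -1.08, -0.27 and 1.43 at high IM, against -4.66, -2.13 and 0.36 at low IM, where 1 spot was left out. Low IM female 1 (0.36) was above 5 of the 6 high IM fish. At high OM they were -2.12, -0.38 and 0.63, against -6.66, -1.90 and 0.43 at low OM. The lowest levels were those of low OM males 2 (-5.45), 5 (-6.66) and 6 (-5.56), and 6 of the 11 low OM fish, male 3 and females 1, 2, 4, 5 and 6, lay within the range of the high OM fish. The difference was 2.13 ± 0.88 in IM and 2.21 ± 0.71 in OM (limma standard error). Without these 3 males the OM difference was 1.00. Low OM males 5 and 6 and low IM female 3 (-4.66) were not well above the background, and their levels enter the differences.

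**Figure D2:**
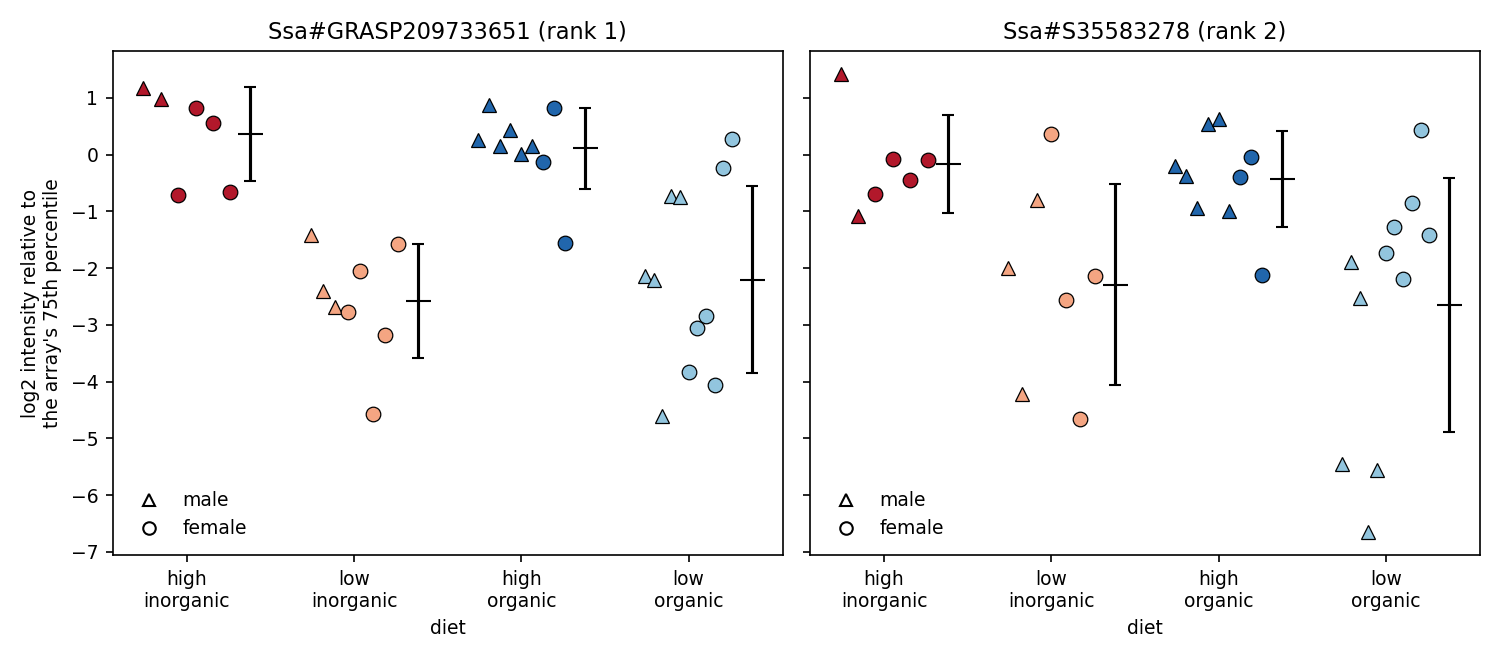
Log2 level relative to the array's 75th percentile (vertical axis) of the members of rank 1 (left) and rank 2 (right) in each fish of the 4 diets, with triangles for males, circles for females, and bars for the mean ± SD. For rank 1 the high and low IM fish do not overlap, and for rank 2 the low OM males 2, 5 and 6 lie between -6.66 and -5.45.

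The third member had a lowest, median and highest level of 6.28, 6.80 and 7.34 at high IM, against 2.98, 4.83 and 6.41 at low IM. At high OM it had 5.93, 6.53 and 8.07, against 3.16, 3.91 and 7.15 at low OM. Its spots were left out in 1 low IM fish and in 4 of the 11 low OM fish, among them males 2, 5 and 6, so its OM change of 2.10 rests on 7 low OM fish. The ranges of the high and low fish met in both sources. The sixth member showed a clear separation in IM, at -0.85, 0.03 and 1.05 in high IM fish, against -3.32, -2.74 and -1.48 in low IM fish. In OM it had -0.98, -0.52 and 0.05 at the high level, against -3.64, -2.04 and 0.06 at the low level, where a low OM fish was above the highest high OM fish. Over the first 10 members the change was between 1.24 and 2.94 in IM and between 1.25 and 2.31 in OM. From rank 51 to 100 the median change was 0.83 in IM and 0.86 in OM, with median standard errors of 0.46 and 0.38.

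All high IM fish were above all low IM fish for 15 members, against 0.544% of the kept probes, and all high OM fish were above all low OM fish for 1 member, against 0.00971%. This member, of rank 96, was the only such probe among those kept. Its lowest and highest levels were -2.02 and -1.02 at high OM, against -5.00 and -2.04 at low OM. Among the 15, the member of rank 13 had levels of 0.71 to 1.54 at high IM, against -0.25 to 0.16 at low IM. The ranking favours probes without overlap.

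The median over the members within a fish summarises how far each fish followed the pattern. The members were picked for their difference between these same fish, so the choice favours a separation of high from low fish. This median averaged 0.52 ± 0.33 in high IM fish (SD, n = 6) and -0.70 ± 0.24 in low IM fish (SD, n = 8), and the 2 groups did not overlap, with 0.04 as the lowest high IM fish and -0.34 as the highest low IM fish. It averaged 0.35 ± 0.26 in high OM fish (SD, n = 9) and -0.97 ± 1.00 in low OM fish (SD, n = 11). The low OM fish were the most dispersed. The median SD of a member was 0.45 at high OM and 1.26 at low OM, against 0.44 and 0.59 over the kept probes. In IM it was 0.47 at the high level and 0.64 at the low level, against 0.42 and 0.47.

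**Figure D3:**
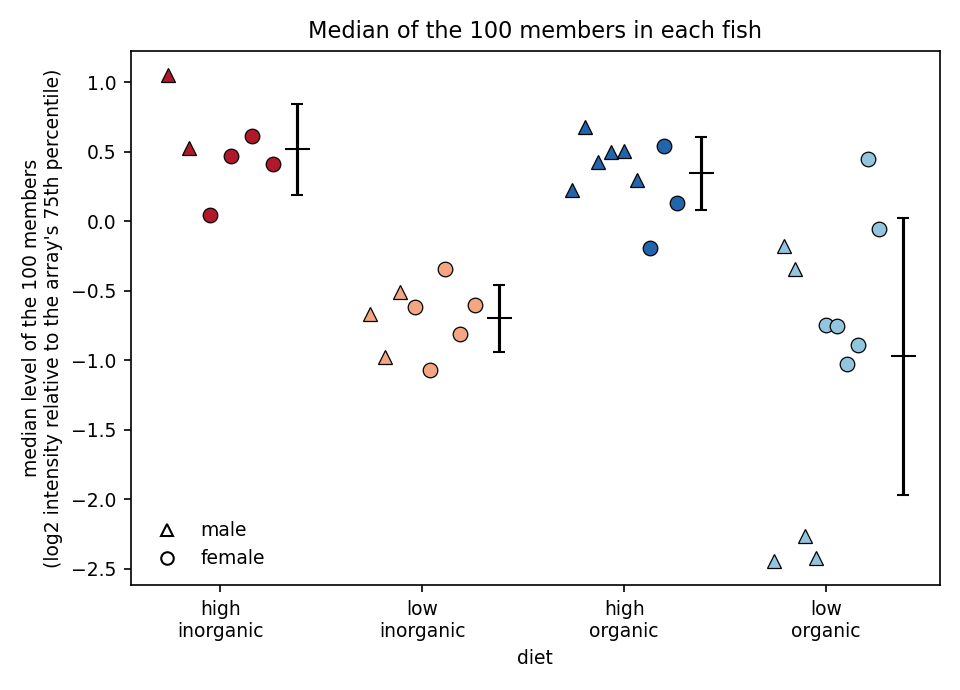
Median log2 level of the 100 members in each fish (vertical axis, relative to the array's 75th percentile) by diet, with triangles for males, circles for females, and bars for the mean ± SD. The high and low IM fish are apart, which the choice of the members favours, while the low OM fish spread from -2.45 to 0.45.

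The low OM fish that lay away from the others did so in opposite directions. Males 2, 5 and 6 had member medians of -2.45, -2.26 and -2.43, below the -1.03 of the lowest of the other 8 low OM fish. They were the lowest of all 34 fish for 16, 14 and 25 members, and so for 55 of the 100 together, while of the kept probes they were the lowest for 5.00%, 1.82% and 6.76%. Low OM female 4 was likewise the lowest for 14 members, against 5.11% of the kept probes. Low levels in low OM fish raised the OM change used for the ranking, so the choice favours such members. Females 5 and 6, at 0.45 and -0.05, lay within the high OM range of -0.19 to 0.68. Low OM male 3, at -0.18, was also just inside this range. Females 5 and 6 were the only low OM females scanned on the second day, and whether their labels are right could not be examined. Female 5 was above the midpoint of the OM means for 92 of 100 members and female 6 for 67 of 98. These females also lay within the high OM range for the 100 probes with the most negative common change, ranked in the same manner. The median of those probes was -1.27 in female 5 and -1.67 in female 6, against -2.31 to -0.92 in the high OM fish. Low OM male 4, at -1.03, was within this range as well. Males 2, 5 and 6 did not stand apart there, with -0.51, 0.06 and -0.43. Their arrays had 818, 200 and 97 spots left out and 75th percentiles of 863, 386 and 225 units. The part of these spots and of the scaling in the levels of the males was not tested.

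Without the 3 males the median OM change of the members was 0.72 instead of 1.12. It stayed positive for 99 of 100 members, against 54.3% of the kept probes. It exceeded the fold criterion for 43 members instead of 82, against 7.41% instead of 6.39% of the kept probes. The remaining fish also entered the ranking, so the choice favours a positive change. The number past this fold in both sources was 38 instead of 63, and 51 of the members were chosen again when the ranking was repeated. Without females 5 and 6 the median OM change was 1.40, 79 members passed the fold in both sources and 74 were chosen again.

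The 3 males split the members into blocks, a division made after their levels had been seen. In 56 of the 99 members measured in them, their mean was more than 1 log2 unit below that of the other 8 low OM fish, as in 7.41% of the kept probes. In 11 members it was more than 1 unit above, as in 10.9% of the kept probes, and in 32 members it was within 1 unit. A low level in these males raised the OM change used for the ranking, so the choice favours members that are low in them. The IM change had medians of 0.90 in the members that were lower in the 3 males, 0.92 in those within 1 unit and 1.12 in those that were higher. In the same order the OM change had medians of 1.34, 0.88 and 0.85 with all fish, and of 0.49, 0.94 and 1.43 without the 3 males. The shift between these values follows from the division itself, which was made on the levels of the 3 males. In the first block the fish medians were 0.52 to 1.22 at high OM, against -2.54, -2.30 and -2.78 in low OM males 2, 5 and 6 and -0.01 to 0.97 in the other low OM fish. In the block within 1 unit, the 3 males had -1.75, -2.06 and -1.95, in the middle of the other low OM fish, which ranged from -2.64 to -0.67.

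**Figure D4:**
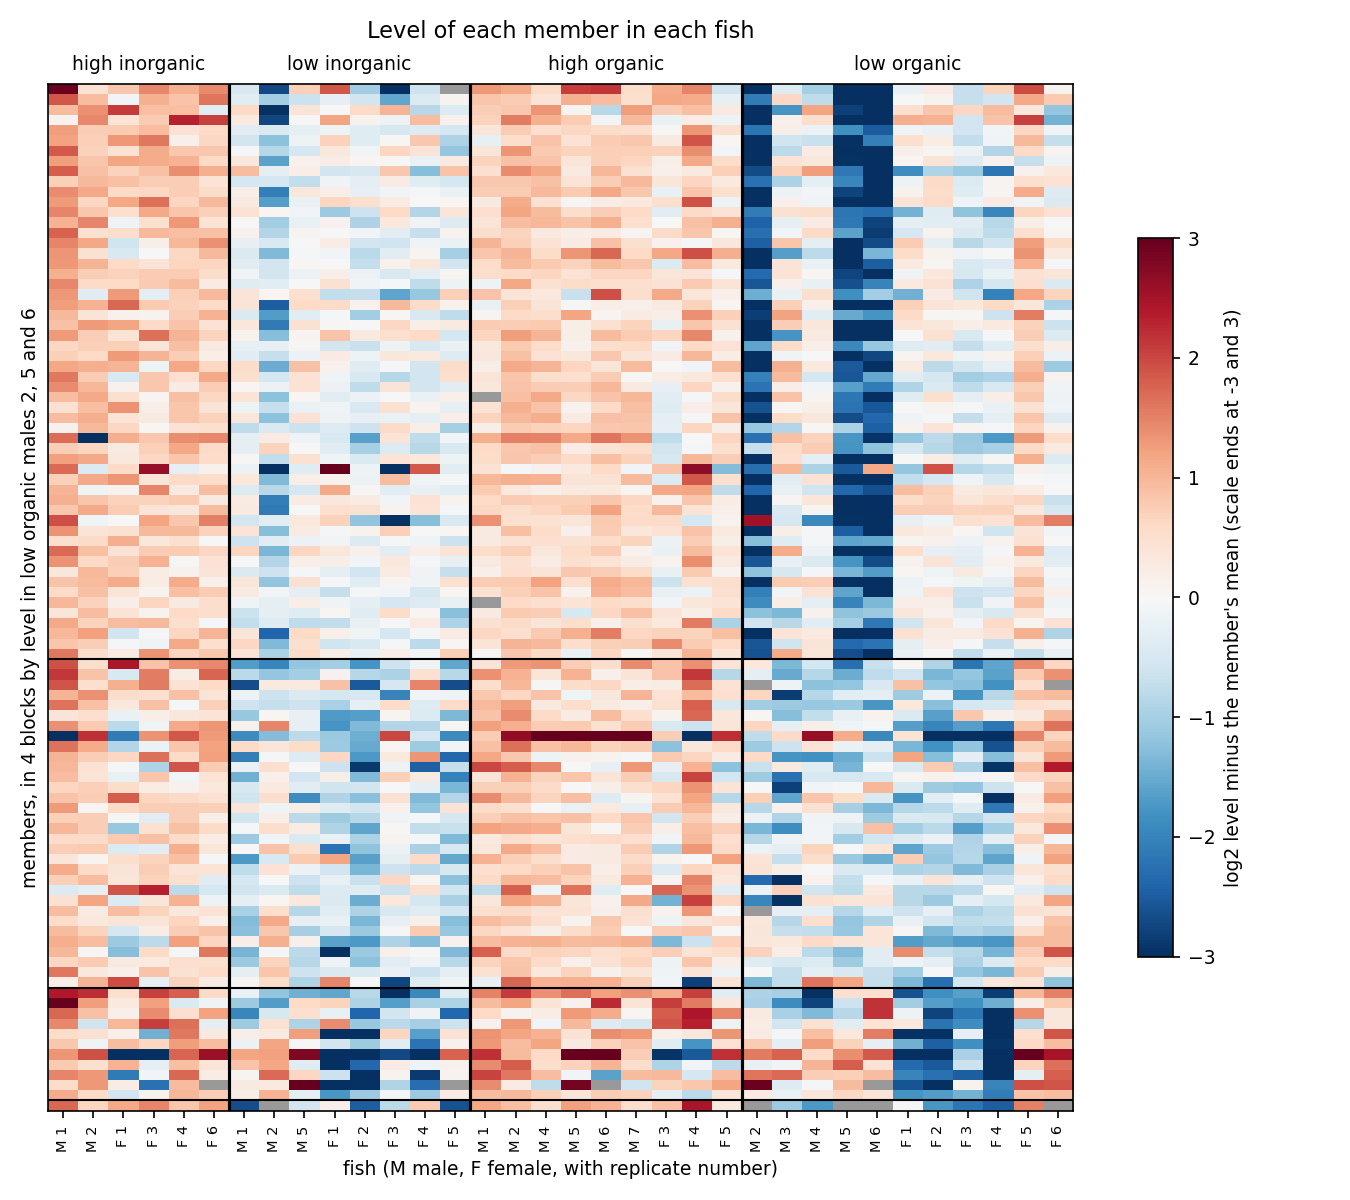
Log2 level of each member (rows) in each fish (columns, grouped by diet) after subtraction of the member's mean, with red above and blue below it and grey for spots left out. The uppermost block holds the 56 members that were more than 1 unit lower in low OM males 2, 5 and 6, followed by the 32 within 1 unit, the 11 that were higher and the 1 member not measured in these fish.

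The members were also compared for how they varied between fish of the same diet. After removal of the diet means, the correlation between pairs of members over the 34 arrays had a median of 0.24, with 30.2% of pairs above 0.5 and 27.8% below 0. For pairs of kept probes the median was -0.01, with 5.78% above 0.5 and 51.1% below 0. All pairs share the same arrays and scaling. The choice also favours members that are low in low OM males 2, 5 and 6, and such members vary together, so it favours this excess. The member most like that of rank 1 was the one of rank 4 (r = 0.58, 34 arrays), and 4 members in all exceeded 0.5. The member most like that of rank 2 was the one of rank 7 (r = 0.86), followed by those of rank 82 (0.84) and 30 (0.83), and 47 exceeded 0.5. Those of rank 2, 7, 82 and 30 were all in the block that was lower in low OM males 2, 5 and 6. The correlation between ranks 1 and 2 was 0.01.

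The members were higher at high minerals in both sexes. The median change was 1.13 in males and 0.91 in females in IM, and 1.71 in males and 0.58 in females in OM. It was positive for 96 members in IM males, 100 in IM females, 98 in OM males and 93 in OM females. In all 4 of these comparisons 88 members were higher, against 13.2% of the kept probes. These comparisons are parts of the differences used for the ranking, so the choice itself favours this excess. The OM change was larger in males for 83 members. Without low OM males 2, 5 and 6 the median OM change was 0.69 in males and 0.58 in females, and it was larger in males for 64 members. Without low OM females 5 and 6 it was 1.71 in males and 0.88 in females, and larger in males for 68 members.

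Whether males and females differed in their OM change was fitted with limma in all 12883 probes with enough values. For the members this is a description. The low OM males entered the ranking as well as this fit, and the fit would be independent of the ranking only if all fish varied alike, while the median SD of a member was 1.26 at low OM and 0.45 at high OM. At an adjusted p under 0.05, 23 members had a larger high minus low difference in males than in females and 0 a smaller one. Of all probes, 15.9% passed, 3.09% with a larger and 12.8% with a smaller difference in males. In the 23, the difference between sexes was 1.31 to 4.30. Their OM change was 1.44 to 4.19 in males and -0.54 to 1.03 in females. At an unadjusted limma p under 0.05, 46 members were larger in males and 2 in females, against 3997 of all 12883 probes in either direction.

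The member of rank 19, which had the smallest limma adjusted p of the 23 (0.00278), illustrates the levels. In males it had levels of 2.42 to 3.01 at high OM, against -0.22, 1.08, 1.74, 0.07 and -1.11 at low OM. In females it had 2.39, 2.69 and 2.32 at high OM, against 1.89, 2.60, 1.62, 2.11, 2.53 and 2.46 at low OM. The high and low fish were apart in males and overlapped in females. The response in males exceeded that in females by 2.22 ± 0.47 (limma standard error). For the member of rank 2 this difference was 3.87 ± 1.24, and for that of rank 1 it was 0.39 ± 1.09.

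All 23 of these members belonged to the block that was low in low OM males 2, 5 and 6, and without these males 0 members passed (8 at an unadjusted limma p under 0.05). Low OM males 3 and 4 were then the only low OM males left. Without low OM females 5 and 6, 15 members passed with a larger difference in males and 3 with a smaller one. Leaving out a single fish gave 3 calls without high OM female 3 (1076 of 12883 probes) and 15 without high OM female 5 (2005 of 12883 probes). With all fish 2046 of 12883 probes passed. The calls were 9, 10 and 12 without low OM males 6, 5 and 2, and 14 without low OM female 5. They were 41 and 42 without low OM males 3 and 4. With slide as a block 1 member passed, against 841 of 12850 probes. On the second scan day alone, with 1 high OM female and the low OM females 5 and 6, the median difference of the members was 1.84. With the normexp correction 0 members and 0 of 12883 probes passed (47 members and 1305 probes at an unadjusted limma p under 0.05).

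**Figure D5:**
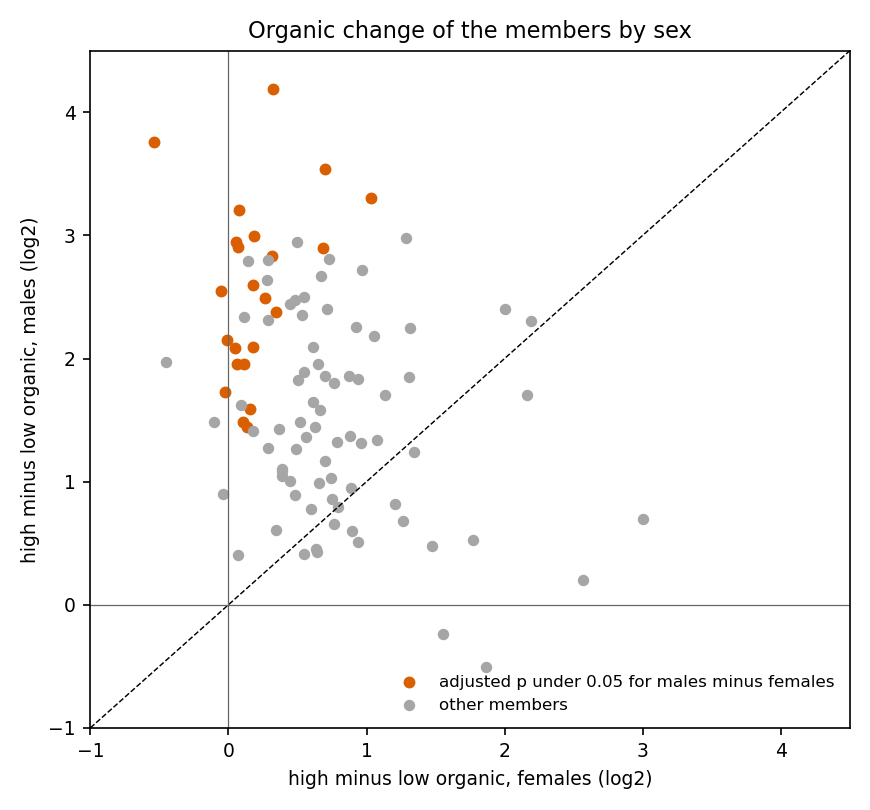
Each point is a member, placed by its high minus low OM difference (log2) in males (vertical axis) and females (horizontal axis), with the 23 members that passed the limma test of the difference between sexes in orange. The dashed line marks equal differences, and 83 members lie above it.

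In IM 0 members passed the same test at an adjusted p under 0.05, and 0 at an unadjusted p (limma). Of the 12883 probes, 0% passed, and 215 had an unadjusted p under 0.05. The median difference of the members was 0.32 with a median standard error of 0.93, and with 2 high IM males large differences would be needed for a call.

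The comparison of level between males and females is also a description for the members, because the low OM males entered the ranking as well as this fit. With the 4 diets as terms, the level in males and females differed for 8 members (limma adjusted p from 0.0142 to 0.0488). Of these 7 were higher in males and 1 lower, against 3.73% and 1.17% of all 12885 probes, and 4.9% in both directions. The median over the members was -0.26, and 65 of the 100 were lower in males, but without low OM males 2, 5 and 6 the median was 0.09 and 61 were higher in males. The largest difference was that of the member of rank 53, by 3.06 ± 0.77 (limma adjusted p = 0.024). Its levels were 3.50 to 6.39 in the 16 males, against 4.66 to 6.08 in the 6 females scanned on the same day and -1.90 to 1.95 in the 12 females scanned on the other day. The females of the second day had the levels of the males. The mineral change of this member was 1.14 ± 1.41 in IM and 0.84 ± 1.17 in OM (limma standard error). By sex it was -0.11 in IM males, 2.04 in IM females, 0.40 in OM males and 0.07 in OM females. On the second day alone the difference between sexes kept its sign in 3 of the 8 members, and 0 members passed (0 at an unadjusted limma p). With the scan day as a block 0 passed (2 at an unadjusted limma p), and with the slide as a block 0 passed (1 at an unadjusted limma p).

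The count of 8 was also unstable to single fish. With all fish 632 of 12885 probes passed. The count of members was 2 without high OM female 3 (241 of 12885 probes) or low IM male 2. It was 3 without high OM female 4, low OM male 5 or any of low OM females 1, 2, 3 and 4, and 4 without high IM female 3, low IM female 1 or 2, or low OM male 2. It was 5 without high IM female 1, high OM males 1, 2 or 4, low IM female 4 or low IM male 1. Without high OM female 5 it was 14 (1211 of 12885 probes). Without low OM males 2, 5 and 6 together 0 passed (22 at an unadjusted limma p).

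No difference in level between mineral sources passed the test for a member. Over the 14 IM fish minus the 20 OM fish, 0 members passed at a limma adjusted p under 0.05 and 4 at an unadjusted p. This comparison would be independent of the ranking only if all fish varied alike. The median SD of a member was 1.26 at low OM and 0.45 at high OM, so for the members it is a description. Of the 12885 probes, 0% passed and 1119 had an unadjusted p under 0.05. The differences of the members ranged from -0.97 to 0.85 with a median of 0.17 and a median standard error of 0.32, and 66 members were higher in IM. Without low OM males 2, 5 and 6 the median was -0.12 and 69 members were lower in IM, so the direction rested on these fish. For the member of rank 1 the difference was -0.16 ± 0.40 and for that of rank 2 it was 0.27 ± 0.56 (limma standard error).

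The change was also computed within scan days. On the first day, in females only, the median change of the members was 0.78 in IM (2 high and 4 low fish) and 0.95 in OM (2 high and 4 low fish). On the second day it was 1.05 in IM (4 high and 4 low fish) and 1.17 in OM (7 high and 7 low fish). In OM the second day gave 1.71 in males (6 high and 5 low fish) and -0.07 in females, with 1 high fish against low OM females 5 and 6. Within slides it lay between 0.75 and 1.00 in IM on the 4 slides that held both levels. In OM it was 1.12, -0.00, 0.68, 2.23 and 0.31 on 5 such slides. The value of -0.00 set high OM male 1 against low OM female 5, that of 0.31 set 3 high OM fish against low OM female 6, and that of 2.23 set high OM male 6 against low OM males 5 and 6.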

How the data were processed

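The authors deposited 34 one-colour (Cy3) scanner files, which hold the intensity of each spot from Agilent Feature Extraction 12.0.1.1 after background subtraction, without scaling between arrays. The table of intensity values that the authors deposited after their own processing served as an alternative. Groups were taken from the sample labels. The log2 of the intensity was set relative to the 75th percentile of all non-control spots of its array, and spots marked as non-uniform or population outliers were left out. 0 spots were saturated. The members and lists were chosen with earlier results of these data known. limma 3.58.1 (R 4.3.3) was fitted to 12885 probes, each above the background on 6 or more arrays, with Benjamini-Hochberg adjustment over all probes fitted, and was tested on simulated data. The 2 highest-ranked members are named and others are given by rank. Alternatives were normexp with an offset of 50, quantile and median scaling, the authors' values, other filters on dim probes, sex as a covariate, blocks for slide, scan day and replicate number, the second scan day only, the arrays of a source only, unmoderated variances, outlier spots kept and each array left out. The percentile over unmarked spots and the removal of low OM males 2, 5 and 6 or females 5 and 6 were chosen after seeing the data. The number of arrays limits the precision.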

Additional observations from a re-analysis of the deposited data

Results flagged for a closer look

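High OM female 5 was far from the other high OM fish for the highest-ranked member, Ssa#GRASP209733651, at -1.56 against -0.13 to 0.87 in the other 8. Its gap to the nearest fish was 0.586 of the range of the group. For 9 sets of 4 to 10 fish this gap was examined, and chance marks about 1 in 20 of them.

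The difference between males and females in the OM change passed the limma test in 23 members, all with the larger difference in males. Of all probes 15.9% passed, 3.09% with the larger difference in males. Without low OM males 2, 5 and 6, which also entered the ranking, 0 members passed, and low OM males 3 and 4 were the only low OM males left. Without low OM females 5 and 6 the difference passed in 18 members, 15 of them with the larger difference in males.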

How the results depend on the processing

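The median change of the members kept its direction under every alternative. The members were chosen for this change in the same fish, so the choice favours a kept direction. The median lay between 0.69 (normexp) and 1.09 (median scaling) in IM. In OM it lay between 0.72 (normexp, and without low OM males 2, 5 and 6) and 1.40 (without low OM females 5 and 6). With 1 fish left out, the median was 0.88 to 1.03 (IM) and 1.03 to 1.27 (OM), 77 to 95 members were chosen again and 52 to 80 were past the fold criterion in both sources. With normexp, 62 members were chosen again and 19 passed the fold, and without the 3 males 51 and 38. The count of members with a different OM response by sex was 23, against 2046 of 12883 probes. It was 7 in a fit of the OM arrays only (1434 of 12885 probes), 10 with the authors' values (878 of 12881) and 38 with median scaling (2750 of 12883). Among probes above the background on all arrays it was 15 of 73 members (530 of 7595 probes). With the slide as a block it was 1 (841 of 12850 probes), with normexp 0 (0 of 12883) and without the 3 males 0. It was 3 to 42 with 1 fish left out. Without females 5 and 6 it was 18 (15 larger and 3 smaller in males). The count with a sex difference was 8 (7 higher and 1 lower in males), against 632 of 12885 probes. With the authors' values it was 15 (5 higher and 10 lower in males), against 1574 of 12885 probes, of which 1333 were lower in males. It was 4 with median scaling (355 of 12885 probes) and 13 without females 5 and 6. It was 0 with the slide or scan day as a block, on the second day and without the 3 males, and 2 to 14 with 1 fish left out. The causes were not tested. The counts for the IM response by sex and for the source were 0 under all alternatives run. The labels link same-numbered fish by the number alone, but 7 of 12 such pairs also shared a slide. The correlation of their deviations exceeded 0.1 in 5 of the 12 pairs. With the replicate block the median changes were 0.94 in IM and 1.14 in OM, and the counts by sex were 23 for the OM response and 3 for the level.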
